A study of Mus musculus with 6 samples.

Results

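The genes described here are the kinases and phosphatases that switch the pyruvate dehydrogenase complex off and on in the mouse heart. Their rows were found by gene symbol. They are the kinase genes Pdk1, Pdk2, Pdk3 and Pdk4, the catalytic phosphatase genes Pdp1 and Pdp2, and Pdpr, which encodes a regulatory subunit of the phosphatase. All 7 were found among the 54532 genes listed, and all 7 were among the 14866 genes with enough counts to be tested. Whole-heart RNA was sequenced from 6 mice aged 3 months on a C57BL/6 background. The study's methods describe males and control littermates. The 3 hearts of genotype Na/K-ATPase a1r/ra2s/s, called resistant, carry the rodent α1 subunit with low affinity for cardiotonic steroids. The 3 hearts of genotype Na/K-ATPase a1s/sa2s/s, called sensitive, carry an α1 with high affinity, made by amino acid substitutions in the mouse gene. Both genotypes are homozygous for a2s/s, and the labels name no treatment. The substitution is present in the whole animal and not in cardiac myocytes alone. Resistant hearts came from mice 368, 369 and 370 and sensitive hearts from mice 379, 380 and 381. The labels do not say which mice shared a litter, nor the time of collection or the feeding state, so these and genotype cannot be told apart.

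Total counts ranged from 19309312 to 20470065 per heart. Mitochondrially encoded genes took between 23.4% and 24.4% of the counts in resistant hearts and between 25.0% and 26.0% in sensitive hearts. All 9 cardiomyocyte marker genes examined were among those tested, with a summed level of 50900 to 62810 CPM (counts scaled to library size by edgeR's TMM method) in resistant hearts and 56240 to 61120 CPM in sensitive hearts. In these bulk samples, fewer cells of a type and less RNA per cell cannot be told apart.

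The pyruvate dehydrogenase complex turns pyruvate into acetyl-CoA in mitochondria and so commits carbon from glucose and lactate to oxidation. The kinases phosphorylate its E1α subunit and switch the complex off, and the phosphatases remove the phosphate and switch it on again. Pdk2 and Pdk4 are the kinases best known in the heart, Pdk4 being induced by fasting, fatty acids and PPAR receptors, while Pdk1 is a known target of hypoxia-inducible factors.

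The sequences upstream of the 2 most abundant kinase genes are shown because their balance sets the isoform shares described below. They were read from RefSeq windows on GRCm38.p6, which gave a window for 6 of the 7 genes, and none for Pdp1. The Pdk4 window lies on the minus strand at chr6:5496310-5496528 and stops at the first annotated transcribed base. The Pdk2 window lies on the minus strand at chr11:95041372-95041621. Capitals mark every match on either strand to the CCAAT box (CCAAT), the core of the hypoxia-inducible factor site (ACGTG) or the E-box (CACGTG), which contains that core.
Pdk4: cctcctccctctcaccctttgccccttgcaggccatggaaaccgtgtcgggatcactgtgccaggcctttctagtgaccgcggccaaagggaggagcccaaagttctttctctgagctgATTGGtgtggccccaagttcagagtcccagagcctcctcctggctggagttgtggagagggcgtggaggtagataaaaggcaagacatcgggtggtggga
Pdk2: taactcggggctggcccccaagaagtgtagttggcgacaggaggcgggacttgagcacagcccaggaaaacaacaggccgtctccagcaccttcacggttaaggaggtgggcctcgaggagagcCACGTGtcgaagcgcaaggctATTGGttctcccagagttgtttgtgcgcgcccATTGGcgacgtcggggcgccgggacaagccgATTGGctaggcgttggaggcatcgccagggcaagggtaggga

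The Pdk4 window of 219 bases held 1 CCAAT box, as did 30.9% of all RefSeq windows cut to that length. No match was found in it to a nuclear receptor half-site (AGGTCA), a forkhead site (GTAAACA), the ACGTG core, the E-box, a GC box (GGGCGG) or a TATA box (TATAAA), which were in 12.5%, 2.8%, 14.4%, 4.97%, 28.3% and 9.92% of windows of that length. The Pdk2 window of 250 bases held 3 CCAAT boxes and 1 E-box, where 33.8% and 6.02% of windows of that length held at least 1. Over 250 bases before its start site, Pdk4 had 6 CpG dinucleotides, equal to the median of all 32851 windows. The other 5 genes with a window had between 11 and 43. These are letter matches in short windows and not sites shown to be used.

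Levels were compared between genes as RPKM, which divides the CPM by the length in kilobases of the gene's exons. By this measure Pdk4 was the most abundant of the 7 in every heart, and Pdk3 was the least. The first place of Pdk4 depends on the length used. In heart 370, Pdk4 had 9047 counts and Pdk2 had 6940, and their longest transcripts have 3484 and 2246 bases. Per base of the longest transcript, Pdk2 was higher than Pdk4 in that heart. In resistant hearts the mean level fell in the order Pdk4, Pdk2, Pdk1, Pdpr, Pdp1, Pdp2 and Pdk3. Sensitive hearts had the same order, and no neighbors in it overlapped in RPKM between the 3 hearts of either genotype. The closest neighbors were Pdk1 and Pdpr, where Pdk1 was 1.17 to 1.21 times as high in resistant hearts and 1.12 to 1.29 times in sensitive hearts.

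**Figure D1:**
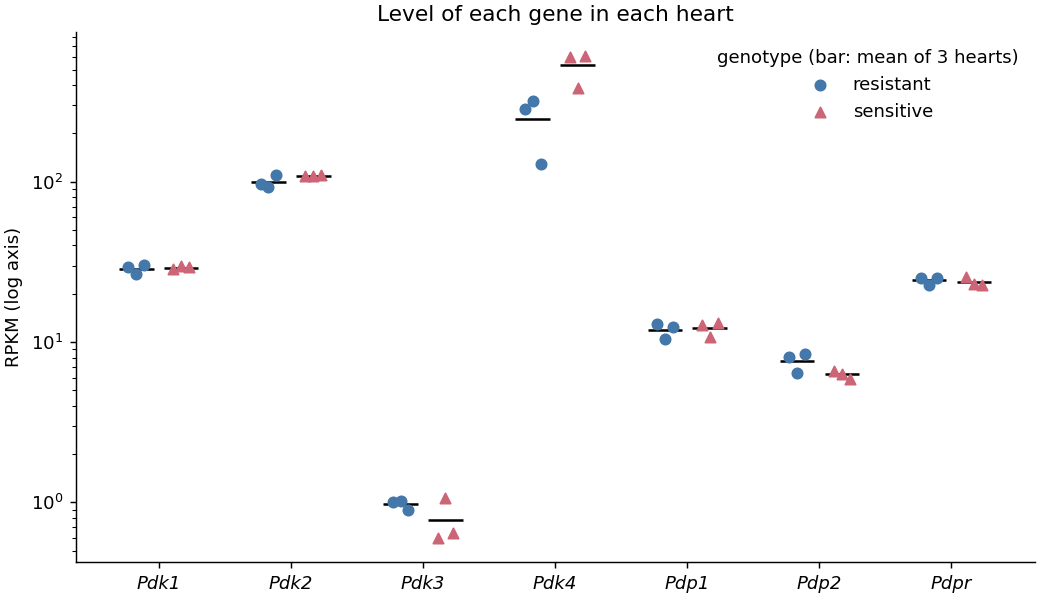
RPKM on a log axis for each of the 7 genes in each heart, with circles for resistant hearts, triangles for sensitive hearts and a bar at the mean of 3 hearts. Pdk4 stands highest, at 129.5 to 320.7 RPKM in resistant and 384.8 to 604.8 RPKM in sensitive hearts, and Pdk3 lowest, at 0.601 to 1.07 RPKM over all 6 hearts.

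Pdk4 (ENSMUSG00000019577, chromosome 6 of GRCm38 from 5483351 to 5496309, minus strand) was the only one of the 7 genes to pass the test between genotypes. Its counts were 20923, 23569 and 9047 in resistant hearts 368, 369 and 370, and 42579, 25684 and 40940 in sensitive hearts 379, 380 and 381. Scaled to library size these were 999, 1126 and 455 CPM against 2114, 1351 and 2123 CPM. The genotypes did not overlap, but heart 370 lay far below the other resistant hearts and heart 380 was closer to heart 369 than to the other sensitive hearts. The mean rose from 860 ± 357 CPM to 1863 ± 443 CPM (SD, n = 3), a ratio of means of 2.17. On the log2 scale, sensitive hearts were 1.12 above resistant hearts (SE, the standard error, 0.24), with an adjusted p = 0.0333 in edgeR, by its quasi-likelihood test and the Benjamini-Hochberg method. Over all tested genes, 1.44% passed in either direction, 0.78% as higher and 0.659% as lower in sensitive hearts. By RPKM, Pdk4 ranked between 53 and 257 among all genes listed, according to the heart.

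Pdk4 also varied more between hearts of 1 genotype than most genes. The standard deviation of its log2 CPM within genotypes was 0.57, above that of 99.8% of the 4397 genes whose log2 CPM averaged at least 5, whose median was 0.09. Neither edgeR's robust prior nor DESeq2, which treat this spread otherwise, gave a call. With edgeR's robust prior the adjusted p was 0.366, and in DESeq2, which called 3.65% of the genes it tested, it was 0.0962 for a log2 fold change of 1.12. Over the 11 alternatives tried, the adjusted p of Pdk4 in edgeR or DESeq2 ran from 3.72e-53, without a filter on low counts, to 0.366. Without that filter the log2 fold change was again 1.12, but its SE was 0.07, against 0.24 with the filter. Without heart 370 the log2 fold change was 0.81 (adjusted p = 0.0194 in edgeR), and the adjusted p was 0.0602, 0.105 and 0.101 in edgeR without heart 368, 379 or 381.

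**Figure D2:**
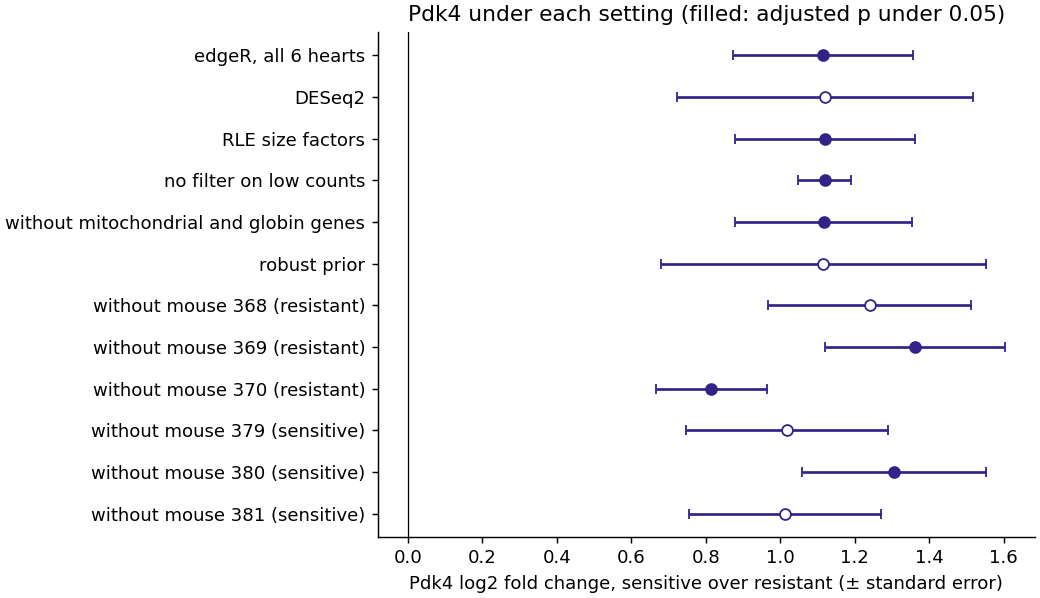
Log2 fold change of Pdk4, sensitive over resistant, with its standard error, for all 6 hearts and for each alternative setting or heart left out. Filled points passed an adjusted p of 0.05. Every estimate lies above 0, between 0.81 and 1.36, and 5 of the 11 alternatives did not pass.

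The other kinases did not pass. Pdk2 (chromosome 11, 95026258 to 95041354), the broadly expressed kinase, had 305, 291 and 349 CPM in resistant hearts and 341, 342 and 348 CPM in sensitive hearts, so that heart 370 reached the level of the sensitive hearts. Its log2 fold change was 0.13 (SE 0.08, adjusted p = 0.469 in edgeR). Pdk1 (chromosome 2, 71873224 to 71903858) had 229, 207 and 234 CPM in resistant hearts and 220, 230 and 228 CPM in sensitive hearts, all within the same range. Its log2 fold change was 0.02 (SE 0.07, adjusted p = 0.935 in edgeR). The X-linked Pdk3 (93764607 to 93832201) was the lowest, with 54, 55 and 46 counts in resistant hearts and 31, 52 and 32 in sensitive hearts. Scaled to library size, heart 380 had 2.74 CPM, above the 2.31 to 2.63 CPM of the resistant hearts, and the other sensitive hearts lay below them at 1.54 and 1.66 CPM. The log2 fold change of -0.34 had an SE of 0.31 (adjusted p = 0.657 in edgeR). Annotated on the strand opposite Pdk2 is Gm11513, which had 0 to 4 counts, and the sources used here do not state whether reads were counted by strand.

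The phosphatase genes did not pass either. Pdp1 (chromosome 4, 11958184 to 11966452), whose product is the calcium-stimulated catalytic subunit, had 58.2, 47.3 and 55.6 CPM in resistant hearts and 57.9, 48.6 and 59.0 CPM in sensitive hearts. Each genotype had 1 lower heart, 369 and 380, and the log2 fold change was 0.04 (SE 0.10, adjusted p = 0.895 in edgeR). Pdp2 (chromosome 8, 104591451 to 104599026), the other catalytic subunit, had 46.1, 36.6 and 47.8 CPM in resistant hearts and 37.8, 36.0 and 33.4 CPM in sensitive hearts. Sensitive hearts were lower apart from the overlap with heart 369. Its log2 fold change was -0.28 (SE 0.10, unadjusted p = 0.0144, adjusted p = 0.204 in edgeR), and without heart 369 it was -0.39 (adjusted p = 0.0781 in edgeR). Pdpr (chromosome 8, 111094630 to 111137074) had 114 to 127 CPM in resistant hearts and 114 to 128 CPM in sensitive hearts, with a log2 fold change of -0.03 (SE 0.07, adjusted p = 0.878 in edgeR). The opposite-strand transcript 9430091E24Rik, which overlaps Pdpr, had 182 to 260 counts. In CPM, 1 of the 7 genes had no overlap between genotypes, where 20% of all tested genes had none, 10% being higher and 9.98% lower in sensitive hearts.

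Isoform shares were taken within each heart, as the percent of the summed RPKM of the 4 kinases. Pdk4 made up 69.2%, 72.8% and 47.8% of kinase transcripts in resistant hearts and 81.5%, 73.5% and 81.2% in sensitive hearts. The genotypes did not overlap, but hearts 369 and 380 were less than 1 percentage point apart. The mean share was 63.3% ± 13.5 in resistant and 78.7% ± 4.54 in sensitive hearts (SD, n = 3), a difference of 15.5 percentage points (two-sided p = 0.1 by an exact permutation test, which with 3 hearts a genotype cannot give less, and 0.1 adjusted over the 4 kinase shares). Without heart 370, which had the lowest Pdk4 share, the difference was 7.73 percentage points. Pdk2 took 23.4%, 20.9% and 40.7% in resistant hearts and 14.6%, 20.7% and 14.8% in sensitive hearts. Pdk1 took 7.15%, 6.04% and 11.1% against 3.84%, 5.65% and 3.93%, and Pdk3 at most 0.333% in any heart. Since the shares of a heart sum to the whole, the lower shares of Pdk1, Pdk2 and Pdk3 are tied to the higher share of Pdk4.

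Pdk4 was therefore set aside and the remaining kinases were compared with each other, a comparison chosen after the shares were seen. Their summed level was 129 ± 11 RPKM in resistant and 139 ± 1.63 RPKM in sensitive hearts (SD, n = 3), and the genotypes overlapped (exact permutation test, two-sided p = 0.4). Within this sum Pdk2 made up 77.0% ± 0.997 in resistant and 78.5% ± 0.483 in sensitive hearts (SD, n = 3), also with overlap (exact permutation test, two-sided p = 0.2). Pdk1 made up 22.2% ± 0.915 in resistant and 20.99% ± 0.306 in sensitive hearts (SD, n = 3, exact permutation test, two-sided p = 0.1). The genotypes were only just apart, with 21.34% in resistant heart 370 and 21.32% in sensitive heart 380. With Pdk4 included, the summed kinase level was 374 ± 90.8 RPKM in resistant and 669 ± 126 RPKM in sensitive hearts (SD, n = 3) and did not overlap (exact permutation test, two-sided p = 0.1).

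Pdp1 was the main catalytic phosphatase transcript in every heart. Its share of the summed RPKM of Pdp1 and Pdp2 was 61.4%, 62.0% and 59.5% in resistant hearts and 65.9%, 63.0% and 69.1% in sensitive hearts. All sensitive hearts were above all resistant hearts, with a difference of 5.02 percentage points (exact permutation test, two-sided p = 0.1). The summed level of both phosphatases was 19.6 ± 2.29 RPKM in resistant and 18.5 ± 1.24 RPKM in sensitive hearts (SD, n = 3) and overlapped (exact permutation test, two-sided p = 0.6).

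Kinase transcripts outnumbered catalytic phosphatase transcripts in every heart. The summed RPKM of the kinases was 19.6, 26.0 and 13.1 times that of Pdp1 and Pdp2 in resistant hearts and 37.9, 30.6 and 39.3 times in sensitive hearts. The genotypes did not overlap, and the difference of the log2 ratio was 0.93 (exact permutation test, two-sided p = 0.1). Without heart 370 the difference was 0.66. The kinase sum includes Pdk4, so this ratio is not separate from the Pdk4 result. As given above, the kinase sum without Pdk4 and the phosphatase sum both overlapped between genotypes. These ratios compare RNA and not protein or enzyme activity.

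**Figure D3:**
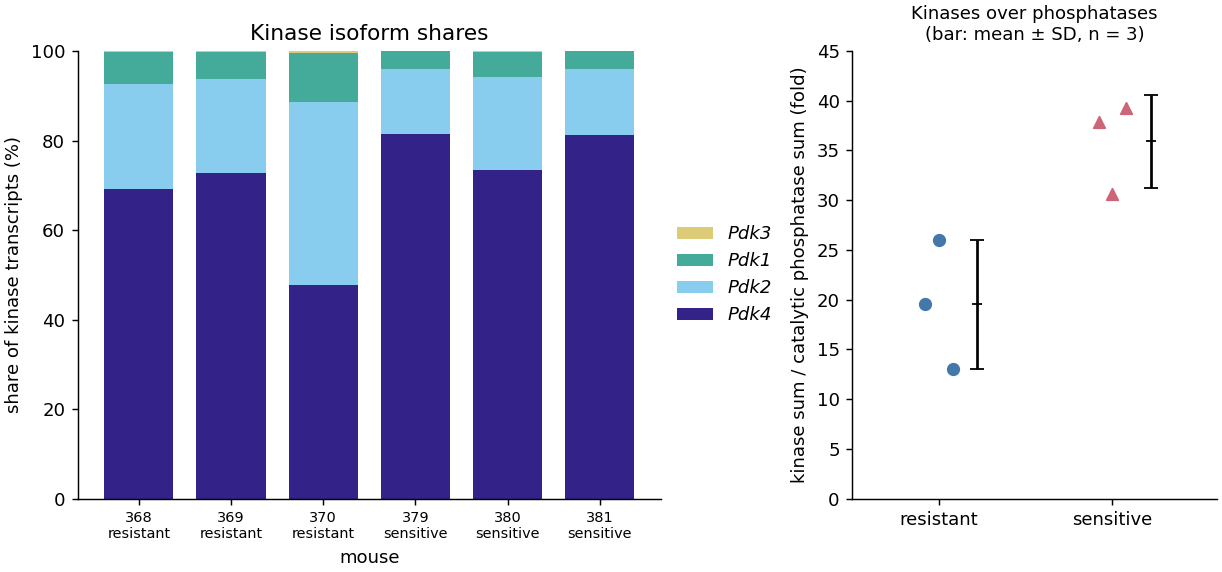
Left, share of Pdk1, Pdk2, Pdk3 and Pdk4 in the summed kinase RPKM of each heart, in percent. Right, summed kinase RPKM divided by summed Pdp1 and Pdp2 RPKM, with points for hearts and bars for mean ± SD (n = 3). Heart 370 has the lowest Pdk4 share, 47.8%, and the lowest ratio, 13.1.

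The complex that these enzymes act on and the genes that bring pyruvate to it were measured for comparison. The list held 13 genes, the complex subunits Pdha1, Pdhb, Dlat, Dld and Pdhx, the mitochondrial pyruvate carriers Mpc1 and Mpc2, pyruvate carboxylase (Pcx), the lactate dehydrogenases Ldha and Ldhb and the monocarboxylate transporters Slc16a1, Slc16a3 and Slc16a7. None of the 13 passed in edgeR, nor did any of the 12 that DESeq2 tested. In edgeR, 2 had an unadjusted p under 0.05, as had 14.5% of all tested genes. Log2 fold changes ran from -0.50 to 0.16 with a median of 0.07, where the median of all tested genes was -0.01. Slc16a7 had 11.5, 10.6 and 12.6 CPM in resistant hearts and 8.54, 6.26 and 9.65 CPM in sensitive hearts (log2 fold change -0.50, SE 0.16, adjusted p = 0.16 in edgeR). Mpc2 had 193, 189 and 207 CPM in resistant hearts and 221, 210 and 228 CPM in sensitive hearts (log2 fold change 0.16, SE 0.07, adjusted p = 0.287 in edgeR). Pdha1, the E1α subunit that the kinases phosphorylate, had 808 to 978 CPM in resistant and 922 to 1021 CPM in sensitive hearts. Dlat, the acetyltransferase core, had 412 to 445 CPM and 428 to 477 CPM, so that both genes overlapped between genotypes.

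**Figure D4:**
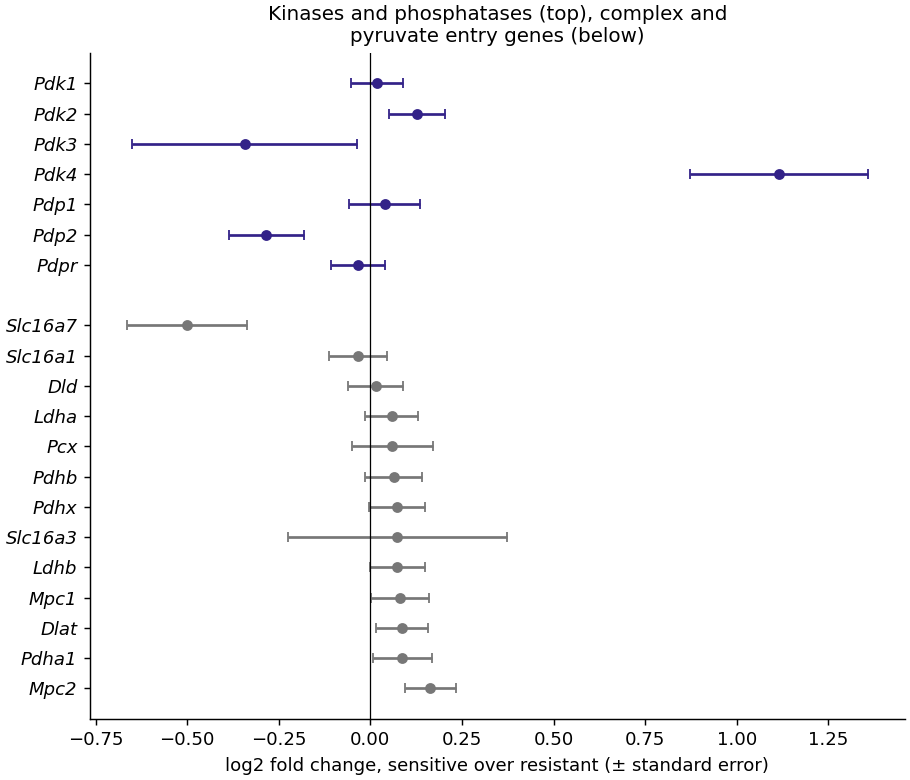
Log2 fold change, sensitive over resistant, with its standard error, for the 7 kinase and phosphatase genes above and the 13 genes of the complex and of pyruvate entry below. Pdk4 lies at 1.12, and all others lie between -0.50 and 0.16.

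The complex that oxidizes branched-chain keto acids is switched by a related kinase (Bckdk) and phosphatase (Ppm1k). None of the 5 genes of that list passed in edgeR or DESeq2, and 1 had an unadjusted p under 0.05 in edgeR, as had 14.5% of all tested genes. The log2 fold changes of the 5 genes were all positive, from 0.04 to 0.19, where 48.5% of all tested genes had a positive one. Bckdk had 66.6 to 71.2 CPM in resistant and 73.1 to 79.1 CPM in sensitive hearts (log2 fold change 0.14, adjusted p = 0.371 in edgeR). Bckdhb encodes a subunit of that complex (log2 fold change 0.19, adjusted p = 0.345 in edgeR).

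Pdk4 belongs to the genes that respond to fatty acids and PPAR receptors. Of 29 others tested, 5 passed as higher in sensitive hearts, or 17.2%, against 0.78% of all genes passing as higher. The log2 fold change was positive for 28, against 48.5% of all tested genes, and 13 did not overlap between genotypes, where 20% of all tested genes did not. None passed as lower. The median log2 fold change of the list was 0.19, and that of all tested genes -0.01. All gene lists compared here, this one and those below included, were chosen with earlier results of these data known. The shares of a list set beside those of all genes are therefore descriptions and no independent test. Among the genes that passed were Acot1 and Acot2, which cleave acyl-CoA, Plin2, which coats lipid droplets, and Ehhadh, an enzyme of peroxisomal β-oxidation. Plin2 had 61.6, 69.5 and 52.1 CPM in resistant hearts and 88.3, 81.6 and 88.6 CPM in sensitive hearts (log2 fold change 0.50, SE 0.09, adjusted p = 0.019 in edgeR). Ehhadh had 24.9, 25.1 and 17.4 CPM against 37.6, 27.5 and 40.8 CPM (log2 fold change 0.65, SE 0.15, adjusted p = 0.0468 in edgeR). Acot1 and Acot2 are paralogs whose reads the counting could have split, and their log2 fold changes were 1.22 and 0.68. The list gave 3 passing genes without heart 368, 379 or 381, and 9 in DESeq2. Acot1 and Acot2 passed with each of the 6 hearts left out in turn, Plin2 in 3 of those fits and Ehhadh in 1.

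The genes that passed had the same lowest hearts as Pdk4. In all 5, heart 370 was the lowest resistant heart and heart 380 the lowest sensitive heart. Over the whole list heart 380 was the lowest sensitive heart for 24 genes, or 82.8%, against 32% of all tested genes. Heart 370 was the lowest resistant heart for 14, or 48.3%, against 35.1%, and heart 369 for most of the rest. Hearts 370 and 380 were both lowest for 13 of the 29 genes of the list, or 44.8%, against 10.3% of all tested genes and 12.1% of the genes called. This comparison was chosen after the values were seen, and the genes share the same libraries.

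**Figure D5:**
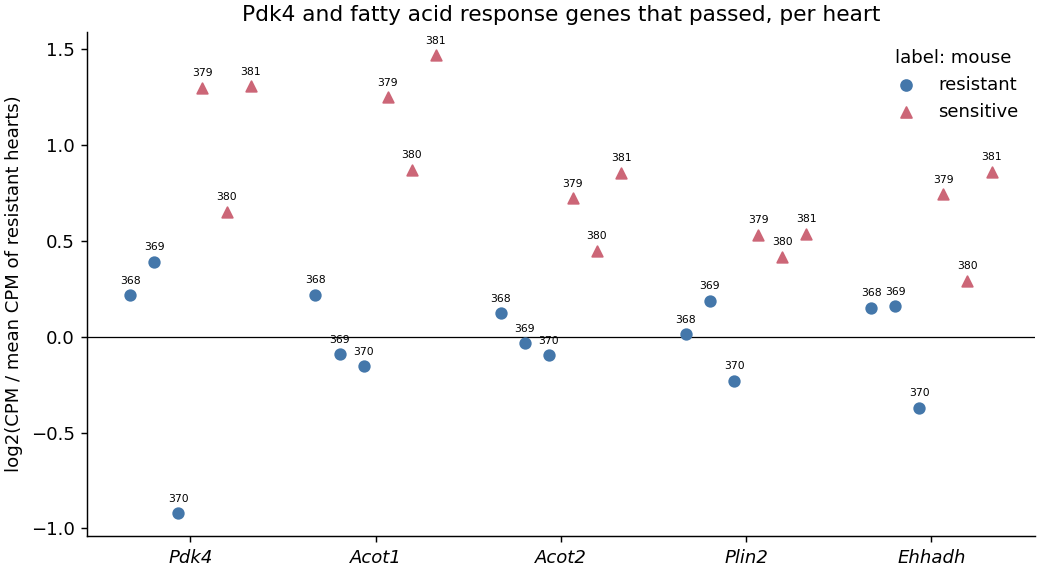
CPM of Pdk4, Acot1, Acot2, Plin2 and Ehhadh in each heart, on a log2 scale relative to the mean of the resistant hearts, with the mouse number at each point. Sensitive hearts lie above all resistant hearts for each gene, and hearts 370 and 380 are the lowest of their genotype.

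Of 21 transcription factors, receptors and coactivators known to act on Pdk genes, none passed in edgeR, nor did any of the 20 that DESeq2 tested. In edgeR, 8 of the 21 had an unadjusted p under 0.05, against 14.5% of all tested genes. Cebpb had 19.2 to 33.6 CPM in resistant and 36.2 to 50.4 CPM in sensitive hearts (log2 fold change 0.62, SE 0.17, adjusted p = 0.0828 in edgeR). Ppargc1b, a coactivator of mitochondrial genes, had 24.2 to 30.6 CPM and 20.6 to 23.0 CPM (log2 fold change -0.35, SE 0.11, adjusted p = 0.129 in edgeR). The PPAR receptor genes did not move in 1 direction. Ppara had a log2 fold change of -0.37 (SE 0.16, adjusted p = 0.315 in edgeR). Those of Pparg and Ppard were 0.39 (SE 0.14, adjusted p = 0.204 in edgeR) and 0.10 (SE 0.11, adjusted p = 0.722 in edgeR). Of the 20 glucocorticoid and FOXO response genes tested, 2 passed as higher and 1 as lower, or 15% in all, against 1.44% of all tested genes. Zbtb16, a glucocorticoid-induced repressor, had 18.4 to 22.9 CPM in resistant and 28.0 to 41.3 CPM in sensitive hearts (log2 fold change 0.69, SE 0.14, adjusted p = 0.0281 in edgeR). Fbxo32, the muscle ubiquitin ligase atrogin-1, had 184 to 202 CPM and 236 to 240 CPM (log2 fold change 0.30, SE 0.07, adjusted p = 0.041 in edgeR). Bcl6, a repressor, was lower, at 14.4 to 25.3 CPM and 7.31 to 14.3 CPM (log2 fold change -0.97, SE 0.22, adjusted p = 0.0394 in edgeR). This list gave 0 passing genes without heart 369 and 1 without heart 368, 380 or 381.

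Of the 20 hypoxia-inducible factor response genes, a class to which Pdk1 is assigned, 1 passed, or 5% against 1.44% of all tested genes. It was the transferrin receptor gene Tfrc, which was lower (log2 fold change -1.50, SE 0.14, adjusted p = 0.000106 in edgeR). The median of the list was 0.08. None of 18 insulin and glucose handling genes passed in edgeR or DESeq2, and 9 had an unadjusted p under 0.05 in edgeR, against 14.5% of all tested genes. Those with the smallest p were the glucose transporter Slc2a1 (log2 fold change 0.58, adjusted p = 0.103 in edgeR) and the insulin receptor substrate Irs2 (log2 fold change -0.43, adjusted p = 0.174 in edgeR). Pdk4 transcripts are known to cycle over the day, so the clock genes were examined as well. None of 18 passed in edgeR, 6 had an unadjusted p under 0.05, against 14.5% of all tested genes, and DESeq2 called 1, Per2, where it called 3.65% of all genes it tested. Per2 had 4.82, 7.21 and 8.79 CPM in resistant hearts and 9.33, 10.6 and 16.4 CPM in sensitive hearts (log2 fold change 0.80, SE 0.23, adjusted p = 0.104 in edgeR). Cry2 had 22.1 to 28.4 CPM and 29.1 to 33.7 CPM (log2 fold change 0.32, SE 0.11, adjusted p = 0.164 in edgeR). Of the 18 clock genes, 3 did not overlap between genotypes, Per2 and Cry2 among them, where 20% of all tested genes did not. The part of the clock genes in the Pdk4 result was not tested.

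The genes most like Pdk4 across the 6 hearts were taken among 12107 genes whose log2 CPM averaged at least 1, by Pearson's r of log2 CPM. Among the 5 with the highest r were AI837181 (r = 0.992), 4833420G17Rik (r = 0.99), the Polycomb gene Phc1 (r = 0.982) and Itm2b (r = 0.982). None of these genes passed between genotypes in edgeR, and their log2 fold changes were 0.13 to 0.35. Of the 12107 genes, 130 had an r over 0.9 to Pdk4. The closest gene to Pdk2 was 2310022A10Rik (r = 0.997), followed by the insulin receptor gene Insr (r = 0.994). For Pdp2 the closest was Prox1 (r = 0.994), a transcription factor gene with a log2 fold change of -0.41 (adjusted p = 0.1 in edgeR).

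Markers of other cells that a whole heart can hold were compared because Pdk4 is also abundant in fat and skeletal muscle. Of 9 adipocyte markers, 6 were tested, and all 6 had positive log2 fold changes, against 48.5% of all tested genes. Of these, 1 passed, or 16.7%, against 1.44% of all tested genes. It was Fabp4, which endothelial cells also express (log2 fold change 0.39, SE 0.09, adjusted p = 0.0358 in edgeR). Fabp4 passed in 1 of the 6 fits that left out a heart. The summed level of the adipocyte markers was 6476 to 7148 CPM in resistant and 7495 to 8334 CPM in sensitive hearts, nearly all of it from Lpl and Fabp4, which cells of the heart itself express. The other adipocyte markers had few counts, with 1 to 25 of Adipoq, 4 to 23 of Plin1, 10 to 28 of Cidec, 35 to 159 of Cfd, 0 to 10 of Retn, 0 to 2 of Lep and none of Ucp1 in any heart. Plin1 did not overlap between genotypes (log2 fold change 1.32, SE 0.53, adjusted p = 0.266 in edgeR), and Adipoq did (log2 fold change 0.93, SE 0.64, adjusted p = 0.545 in edgeR). Adipoq had 1 count in heart 370 and 25 in heart 379. Pearson's r of log2 CPM to Pdk4 was 0.948 for Fabp4, 0.910 for Adipoq and 0.879 for Plin1. It was 0.525 for Cidec, 0.471 for Lpl and 0.325 for Cfd. Within genotypes, r ran from -0.493 for Lpl to 0.949 for Adipoq. Fast skeletal muscle markers summed to at most 2.88 CPM, and Myh4 had no counts. Red blood cell markers summed to 537 to 1274 CPM in resistant and 401 to 3190 CPM in sensitive hearts, the highest being heart 380. All 5 atrial markers had negative log2 fold changes, and their sum was 157 to 253 CPM in resistant and 140 to 168 CPM in sensitive hearts. Endothelial markers summed to 839 to 990 CPM and 698 to 879 CPM, fibroblast markers to 844 to 959 CPM and 814 to 921 CPM, and macrophage and leukocyte markers to 273 to 435 CPM and 250 to 299 CPM. Lung and liver markers summed to at most 1.04 CPM in any heart. None of these other lists had a passing gene in edgeR. DESeq2 called the atrial gene Myl7 (adjusted p = 0.0186), the fibroblast gene Col1a1 (adjusted p = 0.012) and the macrophage gene C1qa (adjusted p = 0.0395), all lower in sensitive hearts, and Lpl and Fabp4 of the adipocyte list, both higher. It called 3.65% of all genes it tested. The part of these markers, adipocyte markers included, in the Pdk4 result was not tested.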

How the data were processed

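RNA was sequenced from 6 hearts, 3 of each genotype, as given by the genotype label. Per the labels, the submitters' processing notes name fastp, STAR and featureCounts with the build mm10, and the authors deposited raw counts of reads per gene, without normalization. Versions, annotation release and strand setting are not given in the sources used here. The deposited gene lengths and coordinates equal those of GENCODE M21 on GRCm38 for all 7 genes. A deposited table of the authors' own DESeq2 comparison (mean, fold change and p-value per gene) was not used.

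The members and gene lists were chosen with earlier results of these data known. Counts were tested in R 4.3.3 with edgeR 4.0.16 over the whole table (TMM, filterByExpr with a minimum count of 10 and total of 15, quasi-likelihood test, Benjamini-Hochberg threshold of 0.05). A standard error is the log2 fold change divided by the root of F. log2 CPM used a prior count of 2. RPKM and shares used the union of exons, and shares were compared with exact permutation tests over hearts in scipy 1.17.1. The permutation p-values rest on the values of these 6 hearts alone. The edgeR and DESeq2 p-values use a spread between hearts that is partly shared between genes. They therefore do not measure the spread of a single gene. For Pdk4 the SE was 0.24 in edgeR and 0.44 with its robust prior, and DESeq2's own was 0.40. Depth was about the same in all hearts, at 19309312 to 20470065 counts.

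The genes named were the 7 members, the complex list, list genes that passed or had the smallest p, and the 5 genes most like a member. The PPAR receptor genes were named in addition. Some genes that this rule selects are not reported here. The alternatives were DESeq2 1.42.0, RLE factors, no filter, leaving out mitochondrial and globin genes, the robust prior, each heart left out, and other lengths for shares. On simulated counts for this comparison with 200 of 14866 genes changed by 1 on the log2 scale, edgeR recovered 88.5%, and 5.85% of its 188 calls were false. The simulated spread of each gene followed edgeR's trend over expression level, and the changed genes were taken from those above a minimum CPM. These rates therefore do not describe a gene that varies between hearts as much as Pdk4.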

Additional observations from a re-analysis of the deposited data

How the results depend on the processing

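No paired analysis was possible because the labels state no litter or other pairing between resistant and sensitive mice. Of the 7 genes, only Pdk4 passed, and its log2 fold change stayed positive under every alternative tried. It did not pass in DESeq2 (1.12, adjusted p = 0.0962) or with edgeR's robust prior (1.12, adjusted p = 0.366), and leaving out one heart gave values from 0.81 to 1.36. Leaving out one heart gave log2 fold changes from -0.03035 to 0.0592 for Pdk1 and from -0.04128 to 0.1272 for Pdp1. Pdk1 changed sign without heart 369, and Pdp1 changed sign without heart 369 or 381 (-0.009943). Of the 14866 genes tested, 214 passed, as did 403 of 11038 in DESeq2 and 618 of 28183 without a filter. With one heart left out, 80 to 158 genes passed. DESeq2 called 9 of 29 fatty acid response genes (5 in edgeR), 2 of 18 hypoxia-inducible factor response genes (1 in edgeR) and 1 of 18 clock genes (0 in edgeR). Without a filter the calls were 10 of 30 fatty acid, 12 of 21 glucocorticoid and FOXO and 5 of 20 hypoxia-inducible factor response genes. That setting also called 4 of 18 insulin and glucose genes, 2 of 18 clock genes and 2 of 21 factors that act on Pdk genes. With one heart left out the calls were 3 to 5 fatty acid genes, 0 to 3 glucocorticoid and FOXO genes, 0 to 1 insulin and glucose genes and 0 to 1 factors. The causes were not tested. The other shares and ratios kept their direction under each length and each heart left out. With the longest transcript in place of all exons, the mean Pdk4 share was 55.3% in resistant and 72.4% in sensitive hearts, and with raw counts 59.3% and 75.9%. Pdk3 had 31 to 55 counts per heart, which limits the precision of its difference.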
